A study of Homo sapiens with 24 samples.

Results

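The 10 genes described here encode transcription factors of the AP-1, EGR and MYC families: FOS, FOSB, FOSL1, FOSL2, JUN, JUNB, JUND, MAFF, EGR1 and MYC. They were chosen by symbol, as the rows of the deposited count table whose Ensembl identifier maps to these names. Each symbol matched a single protein-coding gene, which gave 10 members among 60675 genes in the table, of which 19586 are protein-coding. RNA had been sequenced from SW1783, an established human astrocytoma cell line, after 24 h with an extract of the dried fruit of Schisandra chinensis. The hot water extract (WESF) was given at 20, 100 or 500 µg/mL (low, medium and high dose), and the 70% ethanol extract (EESF) at 12.4, 62 or 310 µg/mL. The control was PBS with 0.1% DMSO. Vehicle A carries the label of the WESF groups, batch A, and vehicle B that of the EESF groups, batch B. The labels do not say which step of the work the batches refer to. All 8 groups carried this same line. By the study's methods a screen of cytotoxicity set the high doses, with no toxicity seen for WESF at 500 µg/mL and partial toxicity for EESF at 310 µg/mL (its IC20), so the extracts are compared at doses that also differ in toxicity. Each group held 3 libraries, 24 in all, with totals between 18727797 and 32567395 expected counts. Nothing in the sources used here says that the 3 libraries came from separate cultures, so p-values measure the spread between these libraries, which may be technical.

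AP-1 is a dimer of a JUN protein with a FOS protein or with another member of the same leucine-zipper class. JUN and FOS proteins activate genes with AP-1 sites, while JUNB, JUND and FOSL proteins can weaken or replace that activity. FOS, FOSB, JUN, JUNB, MAFF, EGR1 and MYC are immediate early genes: growth factors and stress switch them on within minutes through MAP kinases, serum response factor and CREB, and their RNA usually decays again within hours. MAFF is a small MAF protein that lacks an activation domain and works as a partner of other leucine-zipper proteins. EGR1 is a zinc finger activator downstream of ERK, and MYC pairs with MAX to drive growth and ribosome production.

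The label of the line was checked against markers of brain cells. VIM, the intermediate filament of mesenchymal cells and immature astrocytes, averaged 4898 CPM (counts scaled to library size by the TMM method) over the 24 libraries, and CD44, a surface receptor frequent in glioma, 2599 CPM. SOX9, a factor of glial precursors, averaged 70.8 CPM, the glutamate transporter SLC1A3 24.4 CPM and NES, a filament of neural precursors, 6.00 CPM. The astrocyte markers GFAP and S100B were near 0, at 0.172 and 0.0684 CPM, and AQP4 and SOX2 were at 0.00686 and 0.0180 CPM. Of the markers of other cell types, TUBB3 averaged 98.9 CPM and SNAP25 24.3 CPM, while RBFOX3, MOG, P2RY12 and EPCAM stayed at or near 0. The summed lists differed between the high doses and the vehicles. The 11 astrocyte and glioma markers summed to 7699, 7796 and 7842 CPM in vehicle A and 6728, 6486 and 6535 CPM at high-dose WESF, and to 7836, 7981 and 8011 CPM in vehicle B and 7270.0, 7516 and 7480.0 CPM at high-dose EESF. VIM, the most abundant, averaged 4821 and 4796 CPM in batch A and 4922 and 5279 CPM in batch B, and CD44 fell with both extracts (log2 fold changes of -0.72 and -0.48). The 4 neuronal markers, led by TUBB3, summed to 160.2, 159 and 156 CPM in vehicle A and 77.8, 85.2 and 77.0 CPM at high-dose WESF, and to 159.9, 166 and 156 CPM in vehicle B and 98.2, 107 and 107 CPM at high-dose EESF. The 4 leukocyte markers, nearly all PTPRC, summed to 9.51, 10.7 and 10.4 CPM in vehicle A, 2.16, 1.97 and 2.37 CPM at high-dose WESF, 8.92, 10.2 and 10.5 CPM in vehicle B and 2.16, 2.27 and 1.53 CPM at high-dose EESF, with AIF1, P2RY12 and CX3CR1 near 0 throughout. The 4 oligodendrocyte markers, led by MBP, summed to 6.75, 7.74 and 6.82 CPM in vehicle A and 14.5, 13.7 and 11.7 CPM at high-dose WESF, and to 6.65, 7.32 and 7.03 CPM in vehicle B and 10.2, 10.5 and 9.84 CPM at high-dose EESF. Their part in the changes below was not tested, and in bulk RNA fewer cells of a type cannot be told apart from less RNA per cell.

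All 10 members passed the filter on low counts in each of the 6 comparisons of a dose with its vehicle. A member passed the test when edgeR's quasi-likelihood test gave a Benjamini-Hochberg adjusted p under 0.05 over all protein-coding genes tested. At high-dose WESF, FOSB, FOSL1, JUN, MAFF and MYC were upregulated and JUNB and JUND downregulated, 7 of 10 members. At high-dose EESF the same 5 genes were upregulated, and FOS, FOSL2, JUNB and EGR1 were downregulated, 9 of 10. These counts stand against a large background: at high-dose WESF 34.3% of 13129 genes rose and 34.6% fell, and at high-dose EESF 29.3% of 13092 genes rose and 28.7% fell. With a fold change beyond 1.5 also required, 5 members rose and 1 fell at high-dose WESF, where 11.1% of genes rose and 13% fell by that rule. At high-dose EESF 4 members rose and 2 fell by it, where 8.21% of genes rose and 9.17% fell.

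**Figure D1:**
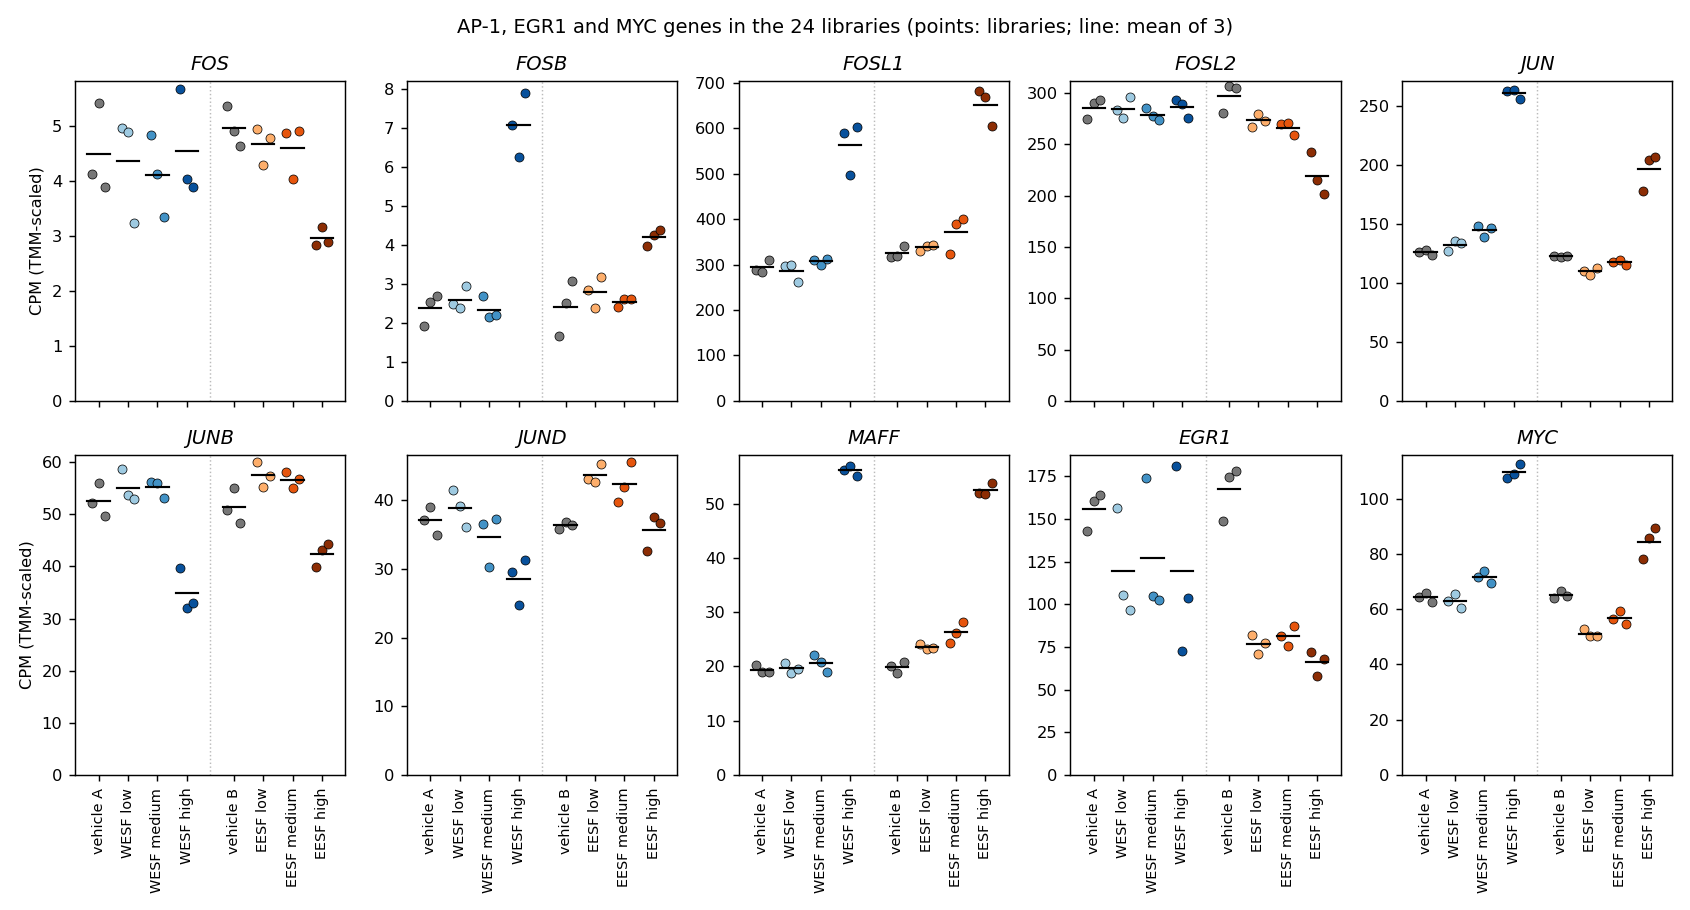
Each panel plots the TMM-scaled CPM of a member (linear axis from 0) in the 24 libraries, with a point per library, a line at the mean of 3 and a dotted line between batch A (left) and batch B (right). FOSB, FOSL1, JUN, MAFF and MYC stand above their vehicles at both high doses without overlap, and EGR1 lies between 57.9 and 87.4 CPM in all 9 EESF libraries against 149 to 178 CPM in vehicle B.

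The members differed widely in level before any treatment. Per kb of annotated exon length, over the 6 vehicle libraries, FOSL1 led with 164 CPM per kb (range 151 to 181), followed by EGR1 at 51.5 (45.5 to 56.8), FOSL2 at 40.7 (38.3 to 42.8), JUN at 34.3 (33.6 to 35.3), JUNB at 28.4 (26.4 to 30.6) and JUND at 19.0 (18.1 to 20.2). MYC had 10.6 CPM per kb (10.3 to 10.9), MAFF 3.50 (3.34 to 3.71), FOS 1.48 (1.22 to 1.70) and FOSB 0.431 (0.297 to 0.553). The ranges of neighbours in this order did not overlap. Vehicle B against vehicle A gave 0 of 10 members by edgeR's test, as it gave 0% of 13001 genes, and 1 member, FOSL1, had an unadjusted p under 0.05, as had 371 of all genes tested.

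FOS (chr14:75278826-75282230, + strand, GRCh38), the founding FOS gene and the one that heterodimerises with JUN in the classic response to serum, was expressed at a few CPM. It had 4.13, 5.43 and 3.90 CPM in vehicle A and 5.68, 4.04 and 3.90 CPM at high-dose WESF. In vehicle B it had 5.36, 4.91 and 4.63 CPM, and at high-dose EESF 2.83, 3.16 and 2.89 CPM. The 3 high-dose EESF libraries lay below all others of batch B, whereas the WESF libraries overlapped their vehicle. The log2 fold change was -0.75 ± 0.13 (SE, n = 3 per group, adjusted p = 0.000279, edgeR) for high-dose EESF and 0.02 ± 0.16 (95% interval -0.32 to 0.36, adjusted p = 0.918) for high-dose WESF. The lowest library of FOS held 76 counts, so its values carry more counting error than those of the other members apart from FOSB.

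FOSB (chr19:45467995-45475179, + strand), a second FOS protein that is slow to decay in its truncated form, was the lowest member in the vehicles. It rose from 1.92, 2.53 and 2.69 CPM in vehicle A to 7.07, 6.26 and 7.89 CPM, a log2 fold change of 1.57 ± 0.15 (adjusted p = 4.89e-08, edgeR). High-dose EESF raised it from 1.65, 2.51 and 3.07 CPM to 3.96, 4.25 and 4.39 CPM, a log2 fold change of 0.81 ± 0.18 (adjusted p = 0.00224). At the low and medium doses of either extract it stayed between 2.15 and 3.18 CPM, within or close to the vehicles. FOSB lies across the reverse-strand gene ERCC1, whose counts reached 2475 in a library against 180 for FOSB, and the strand setting of the counting is not given in the sources used here, so reads of the pair may not be fully separated. ERCC1 itself moved the other way at high-dose WESF (log2 fold change -0.40 ± 0.05, adjusted p = 6.49e-07) and had a log2 fold change of 0.07 ± 0.08 at high-dose EESF (adjusted p = 0.493).

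FOSL1 (chr11:65892049-65900573, - strand) encodes FRA-1, the FOS protein typical of migrating and mesenchymal tumour cells. It was the most abundant member per kb in every group. The vehicle A libraries had 288, 285 and 309.7 CPM and those of high-dose WESF 589, 497 and 603 CPM, a log2 fold change of 0.94 ± 0.06 (adjusted p = 9.6e-10). In batch B it went from 316, 319 and 341 CPM to 683, 669 and 605 CPM at high-dose EESF, a log2 fold change of 1.00 ± 0.06 (adjusted p = 7.56e-08). Both high doses stood clear of every other library of their batch. At medium-dose EESF the libraries had 324, 390.0 and 401 CPM, and the log2 fold change of 0.19 ± 0.07 missed the threshold (adjusted p = 0.0583), though it passed without medium-dose EESF replicate 1 (0.29, adjusted p = 0.00808) or without vehicle B replicate 3 (0.23, adjusted p = 0.0461), with replicate number as a block (0.0201), with no filter on low counts (0.0213) and with library totals in place of TMM (0.0433).

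FOSL2 (chr2:28392448-28417317, + strand), which encodes FRA-2, went down with EESF where FOSL1 went up. It fell from 280.4, 306 and 305 CPM in vehicle B to 242, 215 and 201 CPM at high-dose EESF, a log2 fold change of -0.44 ± 0.07 (adjusted p = 0.000146), and each high-dose library lay below every other library of the batch. At medium-dose EESF, with 269.5, 270.4 and 259 CPM, the fall was -0.16 ± 0.05 (adjusted p = 0.0372). That call was lost when any library other than vehicle B replicate 1 was left out, with adjusted p between 0.0704 and 0.176, and in a fit of all 4 groups of the batch (0.0614). The low-dose EESF libraries, at 267, 279.9 and 273 CPM, missed the threshold (-0.13 ± 0.04, adjusted p = 0.0831) but passed without vehicle B replicate 1 (0.00355) and with the replicate block (0.0435). Under high-dose WESF FOSL2 had 293, 289.6 and 276 CPM against 274, 290.1 and 293 CPM in vehicle A, a log2 fold change of 0.00 ± 0.04 with a 95% interval from -0.09 to 0.10.

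JUN (chr1:58776845-58784048, - strand) encodes c-Jun, the main activating partner in AP-1 and a substrate of the JNK kinases. It was 126, 128 and 124 CPM in vehicle A and 263, 263 and 255 CPM at high-dose WESF, a log2 fold change of 1.05 ± 0.04 (adjusted p = 1.72e-12). In batch B it was 123, 122 and 123 CPM in the vehicle and 178, 204 and 206 CPM at high-dose EESF, a log2 fold change of 0.68 ± 0.06 (adjusted p = 2.18e-06). Neither high dose overlapped its vehicle. The low dose of EESF went the other way, with 109.8, 107 and 113 CPM and a log2 fold change of -0.17 ± 0.04 (adjusted p = 0.0218). This fall was small, and it was lost with library totals in place of TMM (adjusted p = 0.0539), with all 4 groups of the batch (0.0698) and (adjusted p from 0.065 to 0.12) when vehicle B replicate 2 or 3 or any of the 3 low-dose libraries was left out. At medium-dose WESF JUN was the only member to pass, up by 0.19 ± 0.04 (adjusted p = 0.0212), against 1.89% of 13112 genes that rose there. The libraries had 148, 139 and 146 CPM, all above vehicle A, but the call was lost (adjusted p from 0.0545 to 0.129) without vehicle A replicate 2 or 3 or any medium-dose library, and in the fit with replicate number as a block (0.0864).

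JUNB (chr19:12791486-12793315, + strand), a JUN protein that competes with c-Jun in many settings, fell as JUN rose. Vehicle A had 52.2, 56.1 and 49.6 CPM and high-dose WESF 39.7, 32.0 and 32.9 CPM, a log2 fold change of -0.59 ± 0.07 (adjusted p = 1.18e-06). In batch B the values were 50.8, 55.0 and 48.2 CPM for the vehicle and 39.8, 43.1 and 44.4 CPM for high-dose EESF, a log2 fold change of -0.28 ± 0.07 (adjusted p = 0.00335). High-dose libraries lay below all others of their batch in both extracts. At the low and medium doses of EESF JUNB was 55.1 to 59.9 CPM, with log2 fold changes of 0.15 ± 0.06 and 0.14 ± 0.05 that missed the threshold (adjusted p = 0.0987 and 0.0865), though the first passed with library totals (0.0467) and the second with thinned counts (0.0482). JUNB overlaps the reverse-strand gene HOOK2, with at most 342 counts in a library.

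JUND (chr19:18279694-18281622, - strand), the JUN protein usually present in resting cells, fell with WESF and rose at the lower doses of EESF. It fell at high-dose WESF from 37.2, 39.0 and 34.9 CPM to 29.6, 24.7 and 31.3 CPM (log2 fold change -0.37 ± 0.07, adjusted p = 0.000228). Under EESF it rose at the low dose, from 35.7, 36.8 and 36.4 CPM to 43.1, 42.7 and 45.2 CPM (0.26 ± 0.05, adjusted p = 0.00769), and at the medium dose to 39.7, 41.9 and 45.5 CPM (0.22 ± 0.06, adjusted p = 0.0174). The high-dose EESF libraries, at 32.6, 37.5 and 36.7 CPM, overlapped vehicle B (log2 fold change -0.03 ± 0.07, 95% interval -0.17 to 0.12). The medium-dose call was lost without vehicle B replicate 2 (adjusted p = 0.0614) or medium-dose replicate 3 (0.108).

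MAFF (chr22:38200767-38216507, + strand) rose at both high doses. It had 20.2, 19.0 and 19.0 CPM in vehicle A and 56.3, 57.0 and 55.1 CPM at high-dose WESF, a log2 fold change of 1.53 ± 0.05 (adjusted p = 2.68e-13). Vehicle B had 20.2, 18.7 and 20.8 CPM and high-dose EESF 51.9, 51.9 and 53.9 CPM, a log2 fold change of 1.40 ± 0.06 (adjusted p = 9.75e-09). MAFF was also the only member whose rise passed the test at each EESF dose. It had 24.2, 23.2 and 23.5 CPM at the low dose (0.24 ± 0.06, adjusted p = 0.0273) and 24.4, 26.2 and 28.3 CPM at the medium dose (0.40 ± 0.07, adjusted p = 0.00188). The low-dose call was lost without vehicle B replicate 2 or any low-dose library (adjusted p from 0.0774 to 0.138) and with DESeq2 (0.0788). At low and medium WESF it stayed between 18.7 and 22.03 CPM. It overlaps the reverse-strand gene PLA2G6, with at most 124 counts in a library.

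The 250 bases before a RefSeq start of MAFF and of JUND (GRCh38.p14) each hold a CRE, the palindrome TGACGTCA bound by CREB and ATF proteins, shown in capitals because these are the only members whose window has it. The MAFF window is chr22:38201744-38201993 on the + strand and the JUND window chr19:18281623-18281872 on the - strand, both printed 5′ to 3′ on the gene's strand.
MAFF: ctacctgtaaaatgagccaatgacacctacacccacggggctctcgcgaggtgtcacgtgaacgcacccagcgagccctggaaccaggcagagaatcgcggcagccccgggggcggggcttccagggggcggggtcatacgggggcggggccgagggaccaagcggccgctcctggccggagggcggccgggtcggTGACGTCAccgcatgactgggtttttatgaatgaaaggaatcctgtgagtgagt
JUND: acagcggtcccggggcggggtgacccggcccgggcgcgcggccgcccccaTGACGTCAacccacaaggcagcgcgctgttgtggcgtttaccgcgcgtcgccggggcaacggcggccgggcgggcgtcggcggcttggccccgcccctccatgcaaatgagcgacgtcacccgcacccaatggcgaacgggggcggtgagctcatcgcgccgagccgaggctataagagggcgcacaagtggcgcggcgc
The CRE lies at -54 to -47 in MAFF and at -200 to -193 in JUND, counted from the start site. Of 35116 RefSeq promoter windows of 300 bases, 1.85% hold this motif on either strand.

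EGR1 (chr5:138465479-138469303, + strand) was the only member whose fall passed the test at each dose of EESF. FOSL2 also lay below vehicle B without overlap at each dose, but missed the threshold at the low dose (adjusted p = 0.0831, edgeR). In vehicle B, EGR1 had 149, 175 and 178 CPM. EESF lowered it to 81.9, 71.1 and 77.1 CPM at the low dose, 81.4, 75.5 and 87.4 CPM at the medium dose and 72.0, 57.9 and 68.0 CPM at the high dose. All 9 treated libraries lay below all 3 vehicle libraries. The log2 fold changes were -1.13 ± 0.07 (adjusted p = 1.99e-06), -1.03 ± 0.07 (4.21e-07) and -1.34 ± 0.09 (1.32e-07) by edgeR's test, and medium against low dose did not pass (adjusted p = 0.717), while high against medium did (-0.30 ± 0.08, adjusted p = 0.00433).

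In batch A, EGR1 was 143, 161 and 164 CPM in the vehicle, 156, 105 and 96.8 CPM at low-dose WESF, 174, 105 and 103 CPM at medium-dose WESF and 181, 72.9 and 104 CPM at high-dose WESF. Replicate 1 was within the vehicle range at the low dose and above it at the medium and high doses, and replicates 2 and 3 were lower than every vehicle library. None of the 3 comparisons passed the test, with log2 fold changes of -0.38 ± 0.13, -0.30 ± 0.14 and -0.38 ± 0.19 from low to high dose (adjusted p = 0.999, 0.253 and 0.0872) and a 95% interval of -0.79 to 0.02 at the high dose. Without replicate 1 of the treated group the same comparisons gave -0.62 (adjusted p = 0.00763), -0.59 (0.000965) and -0.82 (1.61e-05). Leaving out other treated libraries shrank the values, to -0.26 without replicate 3 at the low dose, to -0.16 without replicate 3 and by a similar amount without replicate 2 at the medium dose, and to -0.13 (0.471) without replicate 2 at the high dose. At the high dose the value also passed with no filter on low counts (0.0322) and with replicate number as a block (0.00676). The share of counts from mitochondrial genes was also higher in replicate 1 of these groups: 11.4% against 10.1% and 8.50% at the low dose, 10.05% against 8.73% and 8.96% at the medium dose and 9.60% against 7.79% and 8.55% at the high dose. It was 10.3% to 10.6% in vehicle A, 11.6% to 11.9% in vehicle B, and 11.5%, 13.3% and 14.1% at medium-dose EESF, so it also differed between groups. Its part in the EGR1 values was not tested.

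**Figure D2:**
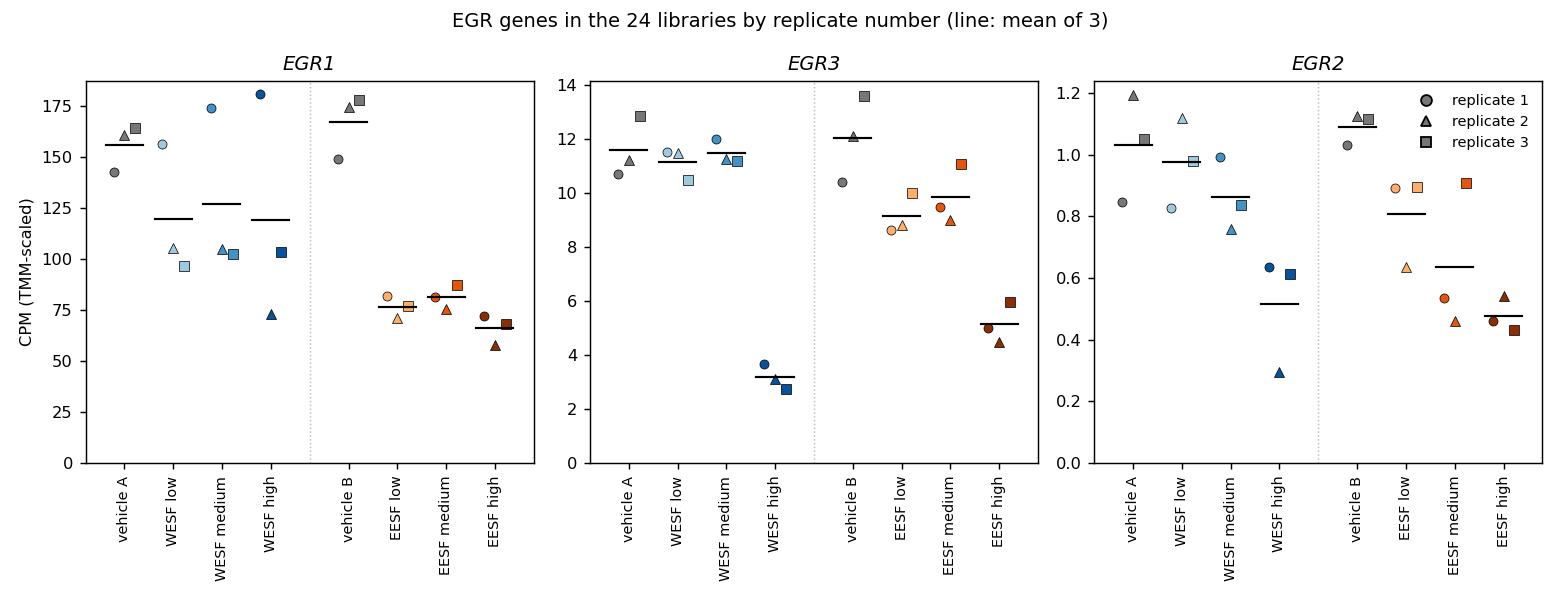
TMM-scaled CPM (linear axes from 0) of EGR1, EGR3 and EGR2 in the 24 libraries, with a symbol for each replicate number and a line at the mean of 3. EGR1 of replicate 1 reads 156, 174 and 181 CPM under WESF, apart from replicates 2 and 3, and the 3 high-dose libraries of EGR3 in each batch lie below the vehicles and the lower doses.

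EGR2 and EGR3, close relatives that bind the same DNA sites, fell at both high doses. EGR3 had 10.7, 11.3 and 12.9 CPM in vehicle A and 3.68, 3.11 and 2.76 CPM at high-dose WESF (log2 fold change -1.86 ± 0.12, adjusted p = 5.75e-10), and 10.4, 12.1 and 13.6 CPM in vehicle B and 5.02, 4.47 and 5.98 CPM at high-dose EESF (-1.22 ± 0.13, adjusted p = 6.13e-06). Unlike EGR1, its 3 WESF replicates lay close together. EGR3 also fell at low-dose EESF (-0.41 ± 0.10, adjusted p = 0.0254), and at medium-dose EESF it missed the threshold (-0.29 ± 0.11, adjusted p = 0.0762). EGR2, at about 1 CPM in the vehicles, had log2 fold changes of -0.97 ± 0.30 (adjusted p = 0.00861) at high-dose WESF and -1.18 ± 0.25 (0.00144) at high-dose EESF, and the first of these calls was lost without high-dose WESF replicate 2 (0.0519).

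Upstream of EGR1, and in a window of EGR2, stand CArG boxes, the sites of serum response factor, capitalised here. The other members with a window have no match, including FOS, FOSL2 and JUNB, which also fell at high-dose EESF. The other windows of EGR2 have none, and EGR2 fell at high-dose WESF too. The EGR1 window is chr5:138465229-138465478 on the + strand and the EGR2 window chr10:62816367-62816616 on the - strand (GRCh38.p14), 250 bases before the start, 5′ to 3′ on the gene's strand.
EGR1: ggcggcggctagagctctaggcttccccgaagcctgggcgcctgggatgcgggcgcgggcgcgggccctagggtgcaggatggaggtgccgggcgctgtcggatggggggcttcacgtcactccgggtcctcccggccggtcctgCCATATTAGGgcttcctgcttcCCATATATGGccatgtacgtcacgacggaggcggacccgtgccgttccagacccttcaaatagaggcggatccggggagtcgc
EGR2: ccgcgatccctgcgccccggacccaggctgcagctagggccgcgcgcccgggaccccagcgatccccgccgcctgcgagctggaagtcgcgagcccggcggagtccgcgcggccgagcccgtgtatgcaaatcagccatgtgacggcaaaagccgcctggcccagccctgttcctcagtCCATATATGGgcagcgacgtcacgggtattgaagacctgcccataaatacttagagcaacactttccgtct
The boxes lie at -105 to -96 and -83 to -74 in EGR1 and at -71 to -62 in EGR2, and 1.29% of the 35116 windows hold a CArG box. Windows were found for 8 members: FOS, FOSB, FOSL2, JUN, JUNB, JUND, MAFF (2 windows) and EGR1. Among them TATAAA stood at -33 to -28 in FOS, -30 to -25 in FOSB and -31 to -26 in JUNB (11.5% of all windows), and an AP-1 site of the form TGANTCA at 4 to 10 in FOSL2 (7.71%). The E-box CACGTG was in both windows of MAFF (7.26%), and the EGR1 site, GCGTGGGCG or GCGGGGGCG, in none of the members' windows (5.77%). Both strands were searched, no matches of different motifs overlapped, and a match is a description of the sequence only.

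MYC (chromosome 8, + strand), the growth-promoting factor of the group, was 64.3, 65.9 and 62.7 CPM in vehicle A and 107, 109 and 113 CPM at high-dose WESF, a log2 fold change of 0.77 ± 0.04 (adjusted p = 1.6e-10). Under EESF its direction depended on the dose. From 64.1, 66.6 and 64.9 CPM in vehicle B it fell to 52.8, 50.3 and 50.3 CPM at the low dose (-0.36 ± 0.05, adjusted p = 0.00132) and 56.6, 59.4 and 54.6 CPM at the medium dose (-0.19 ± 0.05, adjusted p = 0.0150), and rose to 78.1, 85.7 and 89.3 CPM at the high dose (0.37 ± 0.06, adjusted p = 0.000213). No EESF library overlapped the vehicle at any dose. The medium-dose fall was lost without vehicle B replicate 2 (adjusted p = 0.0823) or medium-dose replicate 3 (0.0908), and the low-dose fall passed in every alternative that was run (adjusted p up to 0.0167). At medium-dose WESF MYC had 71.8, 74.0 and 69.5 CPM, all above vehicle A, with a log2 fold change of 0.16 ± 0.05 that missed the threshold (adjusted p = 0.0671) but passed without vehicle A replicate 1 (0.0444), with library totals (0.0406) and with all 4 groups of the batch (0.0456).

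**Figure D3:**
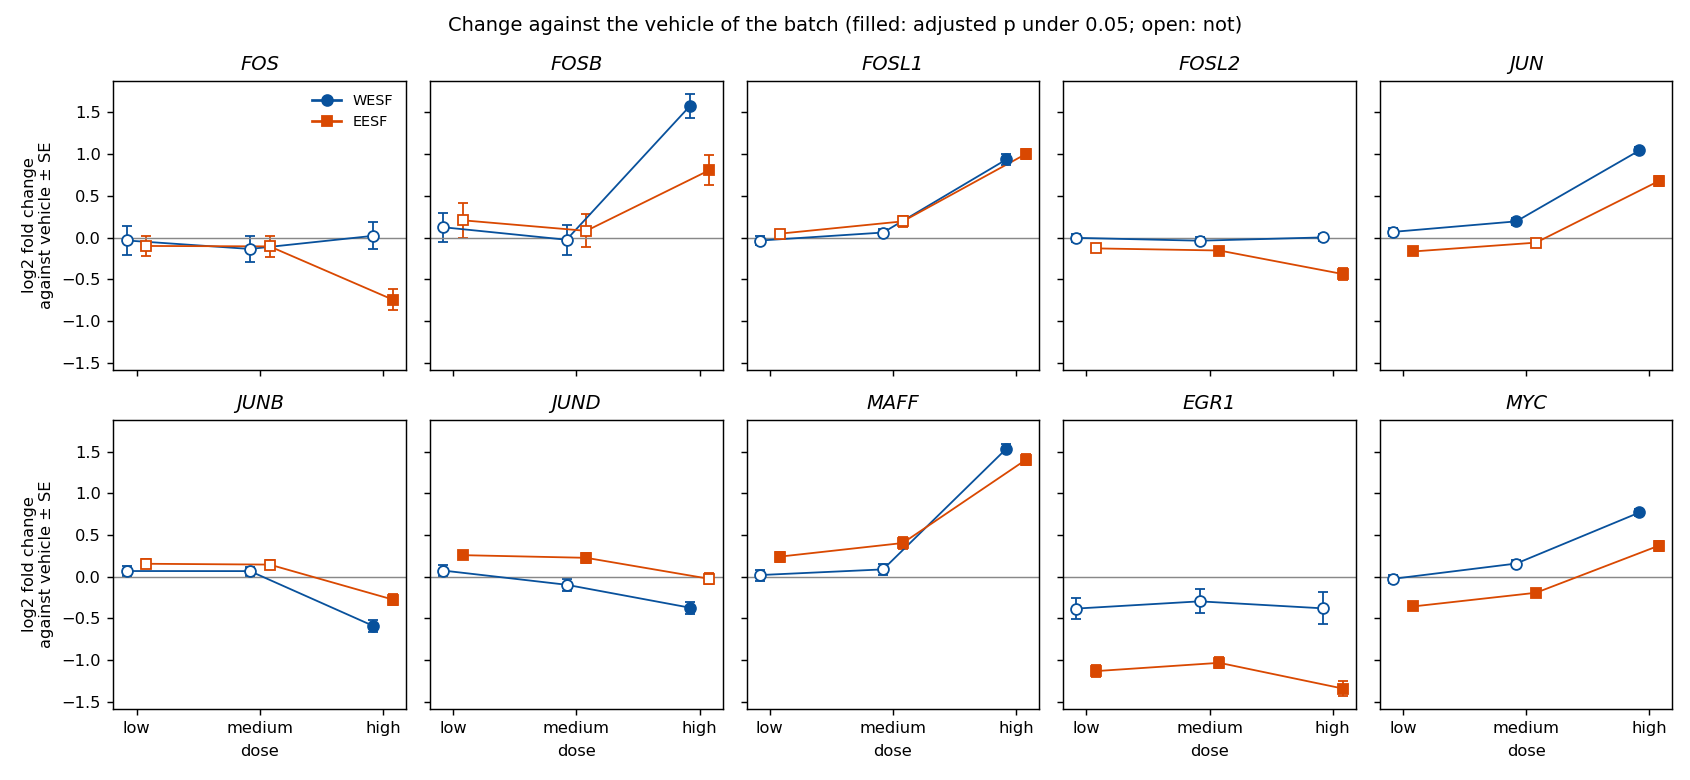
Log2 fold change of each member against the vehicle of its batch (points, with the SE of edgeR's fit as bars) at the low, medium and high dose of WESF (blue circles) and EESF (orange squares), filled where the adjusted p was under 0.05. JUN and MYC pass 0 from below to above between the lower and the high dose of EESF, and EGR1 is near -1.13, -1.03 and -1.34 at the 3 EESF doses.

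Counting by dose, medium-dose EESF moved 5 members: JUND and MAFF rose and FOSL2, EGR1 and MYC fell, against 6.9% of 12978 genes that rose and 8.48% that fell. Low-dose EESF also moved 5, with JUND and MAFF up and JUN, EGR1 and MYC down, against 3.11% of 12892 genes up and 6.24% down. Low-dose WESF moved 0 of 10 members, by edgeR and by DESeq2, where 0% of 13131 genes passed edgeR's test, and EGR1 alone had an unadjusted p under 0.05, as had 470 of all genes tested. Between neighbouring doses, high against medium passed for 7 members in WESF (67.6% of 13094 genes) and for all 10 in EESF (50.9% of 13263 genes). Medium against low passed for 0 members in either extract by edgeR's test (0.936% of 13038 genes in WESF and 0.145% of 13093 genes in EESF), with 3 and 4 members at an unadjusted p under 0.05, as had 1997 and 1103 of all genes tested. A missed threshold does not show that these doses were alike, and MYC, for example, had a log2 change from low to medium dose of 0.19 ± 0.05 in WESF (95% interval 0.09 to 0.29, adjusted p = 0.0759) and 0.15 ± 0.05 in EESF (0.06 to 0.25, adjusted p = 0.317).

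At the high doses FOSL1 made up a larger share of the FOS and JUN transcripts. Per kb, the 7 genes summed to 280.4 ± 5.40 CPM (SD, n = 3) in vehicle A and 447 ± 32.7 CPM at high-dose WESF, and to 297 ± 7.90 and 474 ± 20.1 CPM in vehicle B and at high-dose EESF. FOSL1 made up 55.6% ± 1.73 of that sum in vehicle A and 66.7% ± 2.18 at high-dose WESF, and 58.1% ± 1.18 and 72.9% ± 1.74 in batch B, without overlap in either batch. The share of JUN went from 12.4% ± 0.404 to 16.1% ± 1.40 with WESF, also without overlap, but was 11.4% ± 0.292 in vehicle B and 11.5% ± 1.27 at high-dose EESF, where the libraries overlapped. JUNB fell from 10.3% ± 0.746 to 4.27% ± 0.399 of the sum with WESF and was 9.47% ± 0.752 and 4.90% ± 0.451 in batch B. FOS and FOSB together stayed under 1% in every group. These shares are given as descriptions, with no test beyond that of each gene.

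Whether high-dose EESF and high-dose WESF moved a member by different amounts was tested in a fit of 12 libraries, with the WESF log2 change subtracted from that of EESF. The doses were 310 and 500 µg/mL and the extracts were in separate batches, so extract, dose, toxicity and batch cannot be told apart. It passed for 8 of 10 members, 2 with a higher value for EESF (12.7% of 13376 genes) and 6 with a lower value (13.3%). The higher values were those of JUNB (0.32 ± 0.11, adjusted p = 0.0409) and JUND (0.35 ± 0.11, 0.0262), both of which fell less with EESF or did not pass there. Lower values were found for FOSB (-0.76 ± 0.25, 0.0326), JUN (-0.36 ± 0.07, 0.00219) and MYC (-0.39 ± 0.07, 0.00122), which rose less with EESF. FOS (-0.76 ± 0.22, 0.0195), FOSL2 (-0.44 ± 0.08, 0.00188) and EGR1 (-0.96 ± 0.29, 0.0221), which fell with EESF, had lower values too.

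FOSL1 and MAFF were the members without a detected difference at the high dose. For FOSL1 it was 0.07 ± 0.10 (95% interval -0.13 to 0.27, adjusted p = 0.627) and for MAFF -0.13 ± 0.07 (-0.29 to 0.03, adjusted p = 0.214), intervals that leave room for a modest difference in either gene. The differences of JUN, FOSL2 and MYC passed in every alternative that was run, with adjusted p up to 0.0118, 0.0169 and 0.00884. The differences of JUNB, FOSB and JUND were lost in 10, 7 and 7 of 19 alternatives. Leaving out any of 8 of the 12 libraries ended the JUNB call (adjusted p from 0.0637 to 0.114; all but vehicle A replicate 3, high-dose WESF replicate 1, vehicle B replicate 2 and high-dose EESF replicate 1), and leaving out vehicle A replicate 1, high-dose WESF replicate 1 or 3, vehicle B replicate 2 or 3 or high-dose EESF replicate 2 ended that of FOSB (from 0.0549 to 0.132). JUNB was also lost with the replicate block (0.0719) and with all genes of the table (0.0579), and FOSB with thinned counts (0.0920). The EGR1 difference was lost without vehicle B replicate 2 (0.0514) or high-dose EESF replicate 2 (0.0644), with DESeq2 (0.0747) and with the replicate block (0.0653), and its size was -0.52 without high-dose WESF replicate 1. JUND was lost without vehicle A replicate 2, high-dose WESF replicate 2, vehicle B replicate 3 or high-dose EESF replicate 2 or 3 (0.0505 to 0.0711), with the replicate block (0.0679) and with thinned counts (0.0597), and FOS without high-dose WESF replicate 1 (0.0645).

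**Figure D4:**
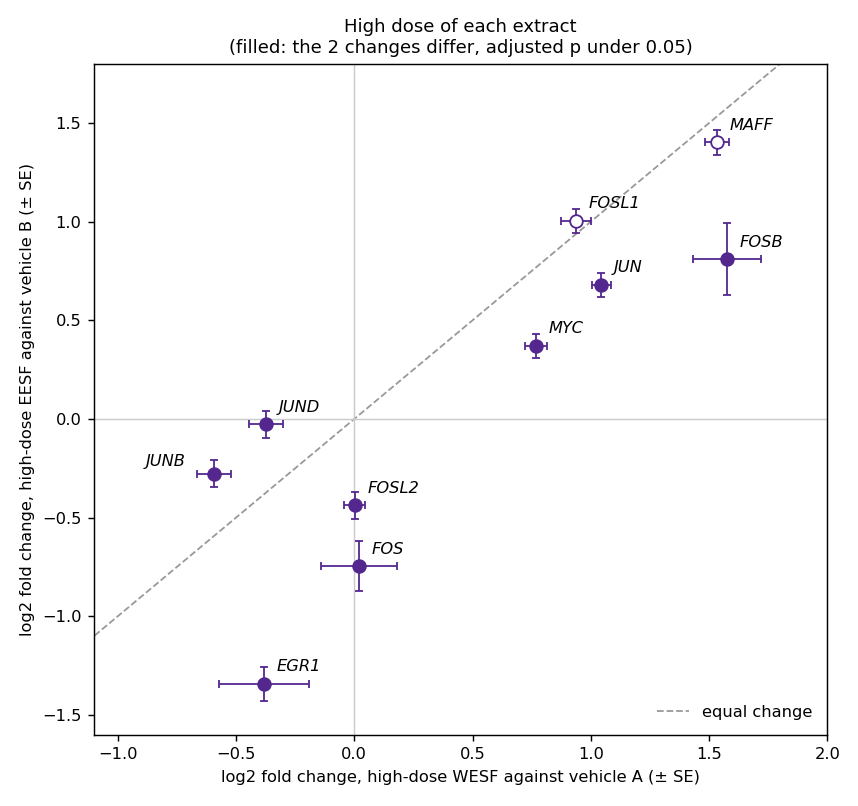
Log2 fold change of each member at high-dose EESF against vehicle B (vertical axis) and at high-dose WESF against vehicle A (horizontal axis), with SE bars and a dashed line of equal change; filled points passed the test of the difference. FOSL1 and MAFF (open) lie near the line, FOSB, JUN, MYC, FOS, FOSL2 and EGR1 below it, and JUNB and JUND above it.

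At the medium dose the difference passed for MYC alone (-0.36 ± 0.06, adjusted p = 0.0360), which had 0.16 with WESF and -0.19 with EESF, against 0.203% of 13276 genes that passed in either direction. At the low dose 0 members passed by edgeR's test (0.00756% of 13221 genes), and 5 had an unadjusted p under 0.05, as had 1389 of all genes tested. EGR1 was among these, at -0.73 ± 0.18 (95% interval -1.11 to -0.35, adjusted p = 0.247).

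Genes around the members were followed by lists of partners, regulators and known targets at the high doses, where roughly as many genes passed in each direction over all genes tested (34.3% up and 34.6% down with WESF, 29.3% up and 28.7% down with EESF). The lists were chosen with earlier results of these data known, so their counts are descriptions and no test. Of the 10 other leucine-zipper genes tested at high-dose WESF, 6 rose and 2 fell, and of 9 at high-dose EESF, 4 rose and 3 fell, with median log2 fold changes of 0.33 and 0.19 against 0.00 and 0.01 for all genes tested. ATF3, a stress-induced repressor and JUN partner, rose from 2.91 ± 0.0140 CPM (SD, n = 3) to 9.74 ± 0.699 CPM with WESF (1.74 ± 0.11 on the log2 scale, SE, adjusted p = 4.15e-10) and from 2.73 ± 0.278 to 5.45 ± 0.462 CPM with EESF (1.00 ± 0.13, 4.91e-05). BATF3, tested with WESF only, rose from 0.178 ± 0.159 to 0.551 ± 0.134 CPM (1.64 ± 0.50, 0.00745). Leaving out a library gave values from 1.15 to 2.54 (the latter without vehicle A replicate 3), and the adjusted p reached 0.0476 in the alternatives.

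Among 28 other immediate early genes, 20 rose and 2 fell at high-dose WESF and 18 rose and 5 fell at high-dose EESF, with medians of 0.52 and 0.31. The shares over all genes tested were 34.3% up and 34.6% down with WESF, and 29.3% up and 28.7% down with EESF. The 5 that fell with EESF were 3 with DESeq2 and without vehicle B replicate 2 or 3 or high-dose EESF replicate 2. PTGS2, the inducible prostaglandin synthase, was 81.3, 81.8 and 88.3 CPM in vehicle A and 365, 345 and 353 CPM at high-dose WESF (2.08 ± 0.05, adjusted p = 3.15e-15), and 82.7, 86.9 and 90.9 CPM in vehicle B and 188, 174 and 188 CPM at high-dose EESF (1.08 ± 0.06, 4.11e-08). DUSP1, a phosphatase that switches off MAP kinases, rose by 1.92 ± 0.05 with WESF and by 1.201 ± 0.05 with EESF (adjusted p = 6.07e-15 and 8.87e-09). IER3, a stress-induced survival factor, rose by 1.499 ± 0.13 and 1.54 ± 0.13 (3.05e-08 and 1.00e-06). Of 4 other EGR genes and corepressors tested, 2 fell with WESF (1 without high-dose WESF replicate 2) and 3 with EESF (medians -0.54 and -0.72), and the corepressor NAB1 was the additional fall with EESF (-0.26 ± 0.09, adjusted p = 0.0213), a call lost with DESeq2 (0.0552) and without vehicle B replicate 2 (0.0901) or high-dose EESF replicate 2 (0.0898).

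Known AP-1 targets moved largely upwards: 15 of 18 rose and 1 fell with WESF, and 12 rose and 1 fell with EESF, with medians of 0.63 and 0.47. By comparison, 34.3% of all genes tested rose and 34.6% fell with WESF, and 29.3% rose and 28.7% fell with EESF. The list was chosen with earlier results of these data known, so its counts are a description only. CXCL8, the chemokine interleukin-8, had 2.58, 3.15 and 3.27 CPM in vehicle A, 64.3, 71.8 and 67.5 CPM at high-dose WESF (4.50 ± 0.08, adjusted p = 1.42e-16), and 2.73, 2.25 and 3.29 CPM in vehicle B and 22.8, 20.0 and 24.1 CPM at high-dose EESF (3.02 ± 0.12, 5.24e-09). The cytokine LIF rose by 1.64 ± 0.05 and 0.93 ± 0.07 (7.01e-14 and 5.75e-07), and PLAUR, the urokinase receptor, by 1.56 ± 0.05 and 1.37 ± 0.06 (8.85e-14 and 1.54e-08). The member of the list that fell with both extracts was CD44, at -0.72 and -0.48. For CXCL8 and LIF the EESF change was smaller than the WESF change (differences of -1.48 ± 0.19 and -0.71 ± 0.08 on the log2 scale, adjusted p = 9.36e-05 and 5.73e-05).

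Targets of EGR1 and MYC moved in both directions, as did the genes tested as a whole. Of all genes tested, 34.3% rose and 34.6% fell with WESF, and 29.3% rose and 28.7% fell with EESF. Of 9 EGR1 targets tested, 5 rose and 3 fell with WESF and 4 rose and 3 fell with EESF, and the 5 were 3 without vehicle A replicate 3 or high-dose WESF replicate 1. F3, the tissue factor gene, rose from 134 ± 2.39 to 372 ± 12.2 CPM and from 135 ± 6.58 to 336 ± 17.0 CPM (1.48 ± 0.04 and 1.31 ± 0.06, adjusted p = 4.87e-14 and 7.61e-09), and PDGFA, a growth factor, by 0.92 ± 0.06 and 0.92 ± 0.08 (3.77e-10 and 1.26e-06). PDGFB, near 1 CPM, rose with WESF (0.82 ± 0.28, 0.0157), a call lost without vehicle A replicate 3 (0.0631) or high-dose WESF replicate 1 (0.147) and with DESeq2 (0.0530), and had 0.17 ± 0.31 with EESF (0.646). Of 22 MYC targets, 10 rose and 9 fell with WESF and 10 rose and 5 fell with EESF (medians 0.08 and 0.12). ODC1, the polyamine synthesis enzyme and a classic MYC target, fell from 287 ± 9.23 to 154 ± 1.91 CPM with WESF (-0.90 ± 0.04, 1.22e-11) and from 285 ± 8.74 to 202 ± 5.41 CPM with EESF (-0.50 ± 0.05, 3.93e-06), while the nucleolar genes GNL3 (0.78 ± 0.05 and 0.71 ± 0.06, 3.69e-10 and 9.59e-07) and WDR74 (0.30 ± 0.06 and 0.65 ± 0.08, 0.000188 and 2.44e-05) rose.

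**Figure D5:**
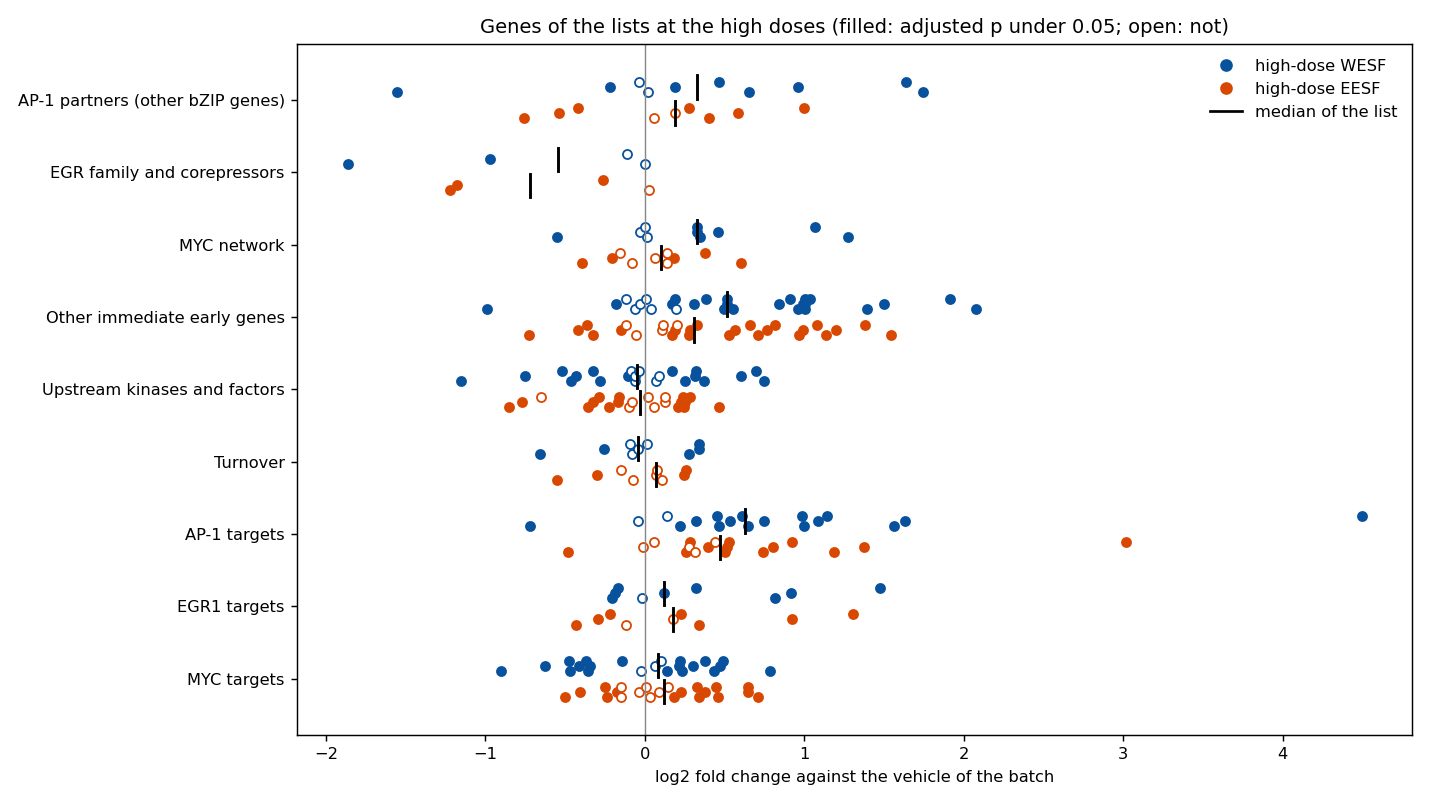
Log2 fold change against the vehicle of the batch (horizontal axis) of the tested genes of 9 lists at high-dose WESF (blue) and high-dose EESF (orange), a point per gene, filled where the adjusted p was under 0.05, with a black line at the list's median. The medians of AP-1 targets are 0.63 and 0.47 and those of MYC targets 0.08 and 0.12, and CXCL8 is the point near 4.50.

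In the MYC network, 6 of 10 genes rose and 1 fell with WESF and 3 rose and 2 fell with EESF (medians 0.33 and 0.10). MAX, the obligate partner of MYC, fell from 55.4 ± 1.51 to 37.9 ± 1.19 CPM with WESF (-0.55 ± 0.05, adjusted p = 3.71e-08) and from 57.3 ± 0.894 to 43.7 ± 1.43 CPM with EESF (-0.39 ± 0.05, 6.30e-05). MXD1, which competes with MYC for MAX, rose with WESF (1.07 ± 0.08, 5.09e-09) and had 0.14 ± 0.10 with EESF (0.232), and these changes differed (-0.93 ± 0.13, adjusted p = 0.000214). MYCL, near 1 CPM, rose by 1.27 ± 0.25 and 0.61 ± 0.23 (0.000245 and 0.0398), and the call with EESF was lost in 8 of 14 alternatives: with DESeq2 (0.145), no filter (0.0506), all genes of the table (0.0577) and all 4 groups of the batch (0.0629), and without vehicle B replicate 1 or 3 or high-dose EESF replicate 1 or 2 (0.0588 to 0.156). Of 22 upstream kinases and factors, 8 rose and 8 fell with WESF and 7 rose and 8 fell with EESF (medians -0.05 and -0.03). Over all genes tested, 34.3% rose and 34.6% fell with WESF, and 29.3% rose and 28.7% fell with EESF. MRTFB, a cofactor of serum response factor, fell (-0.75 ± 0.07 and -0.77 ± 0.10, 1.03e-07 and 3.77e-05), as did MAP3K1, a kinase of the JNK branch (-0.46 ± 0.11 and -0.85 ± 0.12, 0.00151 and 8.96e-05). The neuronal JNK gene MAPK10, under 1 CPM, fell with WESF (-1.15 ± 0.37, 0.0105), a call lost with DESeq2 (0.0501) and without vehicle A replicate 1 (0.0558) or high-dose WESF replicate 1 (0.0603), and had -0.65 ± 0.29 with EESF (0.0702).

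Of 9 genes for turnover of JUN and MYC proteins, 3 rose and 2 fell with WESF and 2 rose and 2 fell with EESF (medians -0.04 and 0.07). Among all genes tested, 34.3% rose and 34.6% fell with WESF, and 29.3% rose and 28.7% fell with EESF. Only 1 fell with WESF without vehicle A replicate 2 or high-dose WESF replicate 2. With EESF, 1 rose without vehicle B replicate 3 or high-dose EESF replicate 2, and 1 fell with DESeq2 or without high-dose EESF replicate 2. DET1, an adaptor of the ubiquitin ligase for JUN, fell (-0.66 ± 0.10 and -0.30 ± 0.09, adjusted p = 2.24e-05 and 0.0133), and the second call was lost with DESeq2 (0.0525) and without high-dose EESF replicate 2 (0.0575). FBXW7, which marks JUN and MYC for degradation, rose with WESF (0.34 ± 0.06, 7.86e-05) and had 0.11 ± 0.06 with EESF (0.163). HUWE1, a ubiquitin ligase that also acts on MYC, fell with EESF (-0.55 ± 0.10, 0.000581) and had -0.09 ± 0.06 with WESF (0.217), which passed without vehicle A replicate 1 (-0.18, 0.00259).

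The genes most like 4 of the members were read from Pearson's r over the 24 libraries, on log2 CPM relative to the vehicle of the batch, among 12248 genes with a mean of at least 1 CPM. FOSL1 was closest to TMEM214 (r = 0.981), SLC6A9 (0.978) and ZFP36L1 (0.976), and JUN to NOLC1 (0.988), RASA1 (0.985) and HK2 (0.985). MYC was closest to COL4A1 (0.971), KLHL36 (0.968) and PTPRF (0.964). EGR1 had lower values, with KIAA1549 (0.887), CHD9 (0.882) and LTBP1 (0.863). Among the members themselves, r was 0.97 between FOSL1 and MAFF, 0.96 between JUN and MYC and -0.91 between JUN and JUNB, while EGR1 had 0.71 with FOSL2, 0.66 with FOS and -0.13 with JUN. The libraries share doses, batches and vehicles, so these values describe a pattern and carry no test.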

How the data were processed

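Reads of 24 libraries had been trimmed, aligned and counted by the authors, who deposited RSEM expected counts per gene without normalization. The submitters' notes and methods name FastQC 0.11.9, Trim Galore 0.6.6, STAR 2.7.9a and RSEM 1.3.3 with a GRCh38 reference, also written hg19 there, and the strand setting is not given in the sources used here. RSEM divides reads that match several genes, and 10.9% of values were not whole. Counts were rounded, and symbols, positions and exon lengths were taken from GENCODE 44 (56558 of 60675 identifiers matched, 19586 protein-coding genes kept). Every dose was tested against its own batch's vehicle (6 libraries) with edgeR 4.0.16 in R 4.3.3 (filterByExpr, TMM, quasi-likelihood test, 2-sided, Benjamini-Hochberg over all genes tested), a substitute for the study's DESeq2, which was an alternative (1.42.0). Differences between extracts were interactions in 12 libraries. SE is the log2 fold change divided by the root of F, and 95% intervals use the fit's degrees of freedom. The script was tested on simulated data. Levels are CPM scaled by TMM over 24 libraries. No libraries of a group agreed within counting noise (chi-square per degree of freedom from 2.02 to 15.5), and each was counted as a replicate.

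The members and lists were chosen with earlier results of these data known. Named list genes were the 3 with the largest absolute change at either high dose among those past the test (1 of them is not reported here), and likeness named the 3 highest r. Alternatives were DESeq2, its size factors, library totals, no filter, non-coding genes included and thinning to a library total of 18727830 counts. Others were all 4 groups of a batch, a replicate block, a fold threshold and leaving out each library. The smallest library had 18727797 expected counts.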

Additional observations from a re-analysis of the deposited data

Results flagged for a closer look

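The change with EESF and the change with WESF at the high dose differed past the test for 8 members, on the log2 scale as EESF minus WESF: FOS -0.76, FOSB -0.76, FOSL2 -0.44, JUN -0.36, JUNB 0.32, JUND 0.35, EGR1 -0.96 and MYC -0.39. At the medium dose the difference for MYC was -0.36. At the high dose, FOSL2, JUN and MYC passed in every alternative that was run, and the other 5 were lost in at least 1. Extract, batch, toxicity and dose in µg/mL cannot be told apart in any of them.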

How the results depend on the processing

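The numbers of members past the test at the high doses were 7 (WESF) and 9 (EESF), and leaving out 1 library gave 7 to 8 and 9 to 9. At medium-dose WESF 1 member passed, 2 with library totals and with all 4 groups of the batch, 0 with the replicate block and 0 with a fold beyond 1.5, and 0 to 2 when a library was left out. At low-dose WESF leaving out a library gave 0 to 1. The 5 members at medium-dose EESF were 1 with the fold threshold and 2 to 5 with a library left out, and the 5 at low-dose EESF were 1 and 3 to 6. The 8 differences between extracts were 5 with the replicate block and 4 to 8 with a library left out. Alternatives were not run for the steps between doses, the vehicles against each other or the differences at the lower doses.

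Replicate numbers did not pair doses with their vehicles (correlations of same-numbered libraries from -0.49 to 0.24), and same-numbered libraries of different doses were not compared in this way. The replicate block raised the high-dose WESF count to 8 and left the 9 of high-dose EESF as it was. Signs changed only for values that missed the test. With a library left out, FOS at high-dose WESF ran from -0.187 to 0.182 (negative without vehicle A replicate 1 or 3 or high-dose replicate 1), FOSL2 there from -0.0306 to 0.0278, JUND at high-dose EESF from -0.0725 to 0.0317, PDGFB there from -0.15 to 0.309 and the FOSL1 difference from -0.0149 to 0.121. FOSL2 at high-dose WESF was also -0.0046 with library totals and -0.0026 with no filter. The causes were not tested. Of the alternative values of single genes, 1356 kept their side of the threshold, 18 gained and 77 lost the call and 12 changed sign. Of the counts of risen or fallen genes in the lists, 491 stayed within 1.5 times and 13 did not. The median log2 change of all genes stayed within 0.036 of 0 under the other scalings. FOS and FOSB, with 76 and 32 counts in their lowest libraries, are the members most limited by depth.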

Other observations

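Among genes with a mean of at least 1 CPM that were higher in replicate 1 of the WESF groups, EGR1 had the highest value of the smallest lead over the 3 doses, a comparison chosen after its values were seen. Its lead over the higher of replicates 2 and 3, relative to vehicle A on the log2 scale, was 0.57 at the low, 0.73 at the medium and 0.80 at the high dose. Of 12248 genes, 743 were higher in replicate 1 than in both others at each dose. The next by their smallest lead were NFE2 (0.42, 0.48 and 0.44), TMEM182 (0.59, 0.32 and 0.34), MT-ND3 (0.32, 0.23 and 0.24) and MT-ND2 (0.35, 0.22 and 0.26).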
